A study of Sus scrofa with 6 samples.

Results

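Interleukins and the tumour necrosis factor (TNF) family are secreted or membrane-bound ligands through which immune, vascular and fat cells signal to each other. Their genes were followed in pig backfat with those of their receptors. Members were all genes whose single symbol on the array begins with IL and a digit, or with TNF. This gave 44 of the 6765 genes with 1 symbol, namely 22 ligands, 17 receptors and 5 others. The others are a soluble binding protein, IL18BP, and 4 genes named for induction by TNF. A gene was represented by its brightest probe set, and 9 of the 44 had more than 1.

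The samples came from 30 male pigs, 15 pairs of full brothers of Pietrain sires and Landrace dams. In each pair 1 piglet was castrated surgically at 7 days of age (barrow), and its brother kept its testes (boar). Weaning was at 30 days and slaughter at 175 days, with free access to feed between, and the middle backfat layer at the 6th rib was frozen at once. RNA of 5 pigs of 1 kind was combined in equal amounts on each of 6 Affymetrix arrays, 3 with boar pools and 3 with barrow pools. Single pigs cannot be seen in such pools, so that every p-value refers to the variation among pools. The comparison asks how castration alters expression in this fat. In bulk tissue, fewer cells of a type and less RNA per cell cannot be told apart.

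Ligands of the interleukin group are made mostly by leukocytes, stroma and, in part, fat cells. They act at very low amounts through paired receptor chains that signal by MYD88 and IRAK kinases to NF-kB (interleukin-1 and interleukin-18) or by JAK kinases and STAT factors (most others). TNF acts on 2 receptors, TNFRSF1A, found on most cells, and TNFRSF1B, found mainly on leukocytes and endothelium. In fat tissue TNF, IL1B and IL6 are known for links with obesity and reduced insulin action. IL18BP binds interleukin-18 and holds it in check.

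No member passed the test between barrows and boars. Of the 26 members bright enough for the test, 0 had a limma adjusted p under 0.05, against 1.16% of all 14399 probe sets tested (167). At an unadjusted p under 0.05 there were 2, the ligand IL15 and the binding protein IL18BP, both with lower signals in barrows. These 2 are 7.69% of the tested members, where the share over all probe sets was 12.2%, or 6.22% for lower signals in barrows alone. With replicate number as a block there were 3 such members, where 15.8% of all probe sets had an unadjusted p under 0.05: TNFAIP1 joined them, at an unadjusted limma p of 0.049 (adjusted p = 0.31). The groups did not overlap in 4 members, IL15, IL18BP, TNFRSF1B and TNFAIP1, all lower in barrows. That is 15.4% of the tested members, against 18.1% of all probe sets (9.76% with barrows lower). The 95% interval of each of the 26 differences lay between -1 and 1 on the log2 scale, a 2-fold difference either way, and 14 lay between -0.5 and 0.5.

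Facts of the whole series set the frame. Fat cell markers on the array were bright, with 10 of 10 tested and ADIPOQ at a mean signal of 21722, while 0 of 5 skeletal muscle markers reached the test. Log2 signals correlated at 0.978 to 0.988 within groups and at 0.975 to 0.983 between them, and barrow replicate 2 lay at the far end of the first principal component. A block for the replicate number raised the count to 338 probe sets (2.35%), and still 0 members. Without barrow replicate 2 the count was 291. Without boar replicate 1, boar replicate 3, barrow replicate 1 or barrow replicate 3 it was 24, 31, 53 and 66. In each of the 6 fits that left out 1 pool, 0 members passed.

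Signals of many members were low, but members fell under the test filter about as often as all probe sets did. The filter kept probe sets whose mean log2(signal + 16) lay in the upper 60%, which corresponds to a signal of about 92.7. It was passed by 26 of 44 members (59.1%), close to the 60% of all probe sets that the filter keeps. These were 12 of 22 ligands (54.5%), 10 of 17 receptors (58.8%) and 4 of 5 others. Among ligands 8 of 18 interleukins and 4 of 4 TNF family members passed, and among receptors 6 of 12 and 4 of 5. The median percentile among all 23999 probe sets was 40.2 for ligands and 62.1 for receptors. Different probe sets bind with different strength, so these levels do not rank the transcripts by abundance. IL18 and IL6 lay just above the threshold, at mean signals of 95.7 and 95.1. The filter acts on the mean log2 value, on which IL10 (mean signal 94.1) and IL12RB2 (75.8) lay just below it. For 3 tested ligands, IL1A, IL18 and TNF, the mean of 1 group lay below the threshold, so they passed through the other group's signals.

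As a scale for dim signals, 23 control probe sets for bacterial trp and artificial tag sequences, which pig RNA does not contain, had mean signals of 1.68 to 69.9 with a median of 9.66. Whether such sequences were added to the samples is not given in the sources used here. The mean lay above the brightest of these controls in 28 members, 13 ligands, 11 receptors and 4 others. It lay below their median in 3 ligands, IL5, IL13 and IL12B, and 2 receptors, IL6R and TNFRSF17.

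**Figure D1:**
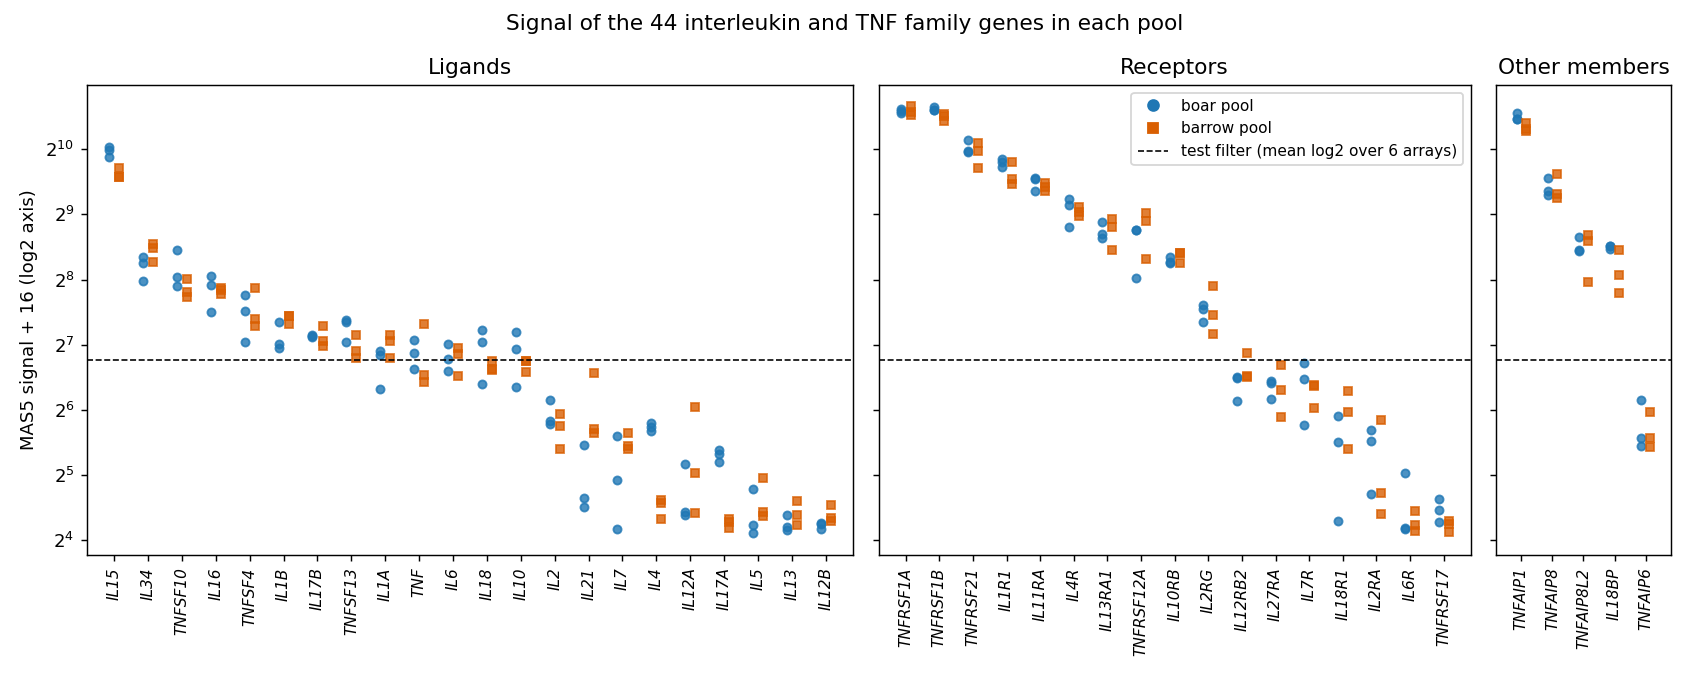
MAS5 signal plus 16 on a log2 axis for each of the 44 genes in the 3 boar pools (circles) and the 3 barrow pools (squares), ordered by mean within ligands, receptors and other members. The dashed line is the test filter, which compares it with the mean over all 6 arrays and which 12 ligands, 10 receptors and 4 others passed.

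Among the ligands IL15 had the smallest p. IL15 sustains natural killer cells and memory T cells. Its signal was 1035, 923 and 999 in boar replicates 1 to 3 and 742, 822 and 748 in the barrow replicates. All barrow values lay below all boar values. The means were 986 ± 57.1 and 771 ± 44.8 (SD, n = 3 each), and the log2 difference was -0.35 (SE 0.09, 95% CI -0.56 to -0.14), a 1.27-fold higher signal in boars. The p was 0.0037 before and 0.13 after adjustment (limma), and 0.11 with the replicate block. With array weights, which give less weight to arrays with more deviating values, IL15 passed (difference -0.39, limma adjusted p = 0.036). Over all 16 alternatives its adjusted p ran from 0.036 to 0.47, and its difference from -0.40 to -0.31.

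Differences of similar size but wider spread were seen in both interleukin-1 ligands, in IL34 and in 2 members of the TNF family. IL1B, the main secreted form of interleukin-1, had signals of 108, 148 and 113 in boars and 157, 158 and 143 in barrows. Boar replicate 2 lay within the barrow range. The difference was 0.29 (95% CI -0.10 to 0.68, limma adjusted p = 0.57). IL1A, the form that acts largely from dying or injured cells, had 63.9, 98.4 and 104 in boars and 94.7, 126 and 116 in barrows, a difference of 0.31 (95% CI -0.18 to 0.80, adjusted p = 0.64). The groups of IL1A overlapped, with boar replicate 1 the lowest pool. Its second probe set, under the filter, had a difference of the opposite sign, -0.22, while that of IL1B had 0.20. IL34, a ligand of the macrophage growth factor receptor CSF1R, had 310, 288 and 235 in boars and 344, 358 and 292 in barrows (difference 0.25, 95% CI -0.07 to 0.56, adjusted p = 0.55). Only barrow replicate 3 lay within the boar range of IL34.

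TNFSF10 (TRAIL), which triggers cell death through its receptors, had 246, 224 and 334 in boars and 209, 197 and 242 in barrows. Its difference was -0.28 (95% CI -0.65 to 0.10, limma adjusted p = 0.57), and barrow replicate 3 overlapped the boar range. TNFSF13 (APRIL), a survival factor of plasma cells, had 150, 147 and 115 in boars and 103, 95.6 and 126 in barrows. The difference was -0.30 (95% CI -0.71 to 0.11, adjusted p = 0.58), with replicate 3 the lowest boar pool and the highest barrow pool. Its second probe set, under the filter, had -0.25.

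The classical inflammatory ligands TNF and IL6 were dim and overlapped between groups. TNF had signals of 101, 82.9 and 118 in boars and 76.8, 144 and 69.9 in barrows. Barrow replicate 2 was the highest of the 6 pools and the other barrow pools the lowest, so that the difference of -0.09 had an interval of -0.67 to 0.48 (limma adjusted p = 0.93). Without barrow replicate 3 or barrow replicate 1, or without boar replicate 3, it was above 0, at most 0.07. IL6 had 93.8, 113 and 80.9 in boars and 108, 99.9 and 75.8 in barrows (difference -0.02, 95% CI -0.48 to 0.45, adjusted p = 0.99). In both groups replicate 3 was the lowest pool for IL6. IL18, which is activated by caspase-1, had 116, 68.5 and 134 in boars and 83.1, 81.3 and 91.3 in barrows. Its boar pools spanned the whole barrow range, and the difference was -0.23 (95% CI -0.76 to 0.30, adjusted p = 0.77).

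The remaining tested ligands, TNFSF4 (OX40 ligand, a T cell costimulator), IL17B and IL16 (a chemoattractant of CD4 cells), had differences of 0.08, -0.03 and -0.00. Their groups overlapped, and their adjusted p was 0.93 or more. Over the 12 tested ligands 4 differences were above 0 and 8 below. Their median of -0.02 lay beside -0.01 for all probe sets tested.

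**Figure D2:**
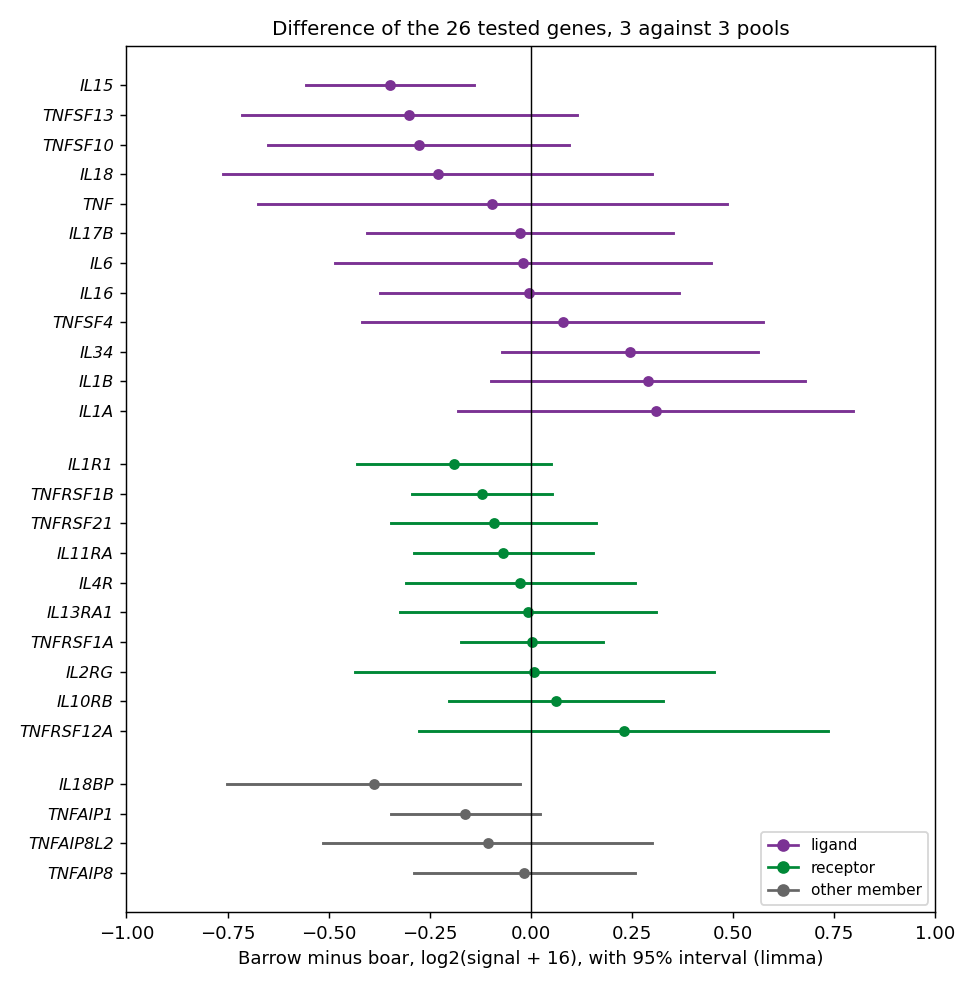
Barrow minus boar difference in log2(signal + 16) for the 26 tested genes (points) with the 95% interval of limma (lines), by role, from 3 against 3 pools. The intervals of IL15 and IL18BP leave out 0, no gene passed after adjustment, and all intervals lie between -0.76 and 0.80.

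No receptor had an unadjusted p under 0.05 in its brightest probe set, and for TNFRSF1A and TNFRSF1B, the receptors of TNF itself, the intervals were narrow. TNFRSF1A, the TNF receptor of most cells, had 1547, 1518 and 1492 in boars and 1601, 1459 and 1510 in barrows. The groups lay on top of each other, with a difference of 0.00 and an interval of -0.17 to 0.18 (limma adjusted p = 0.99). The interval leaves out a fold above 1.13 either way. TNFRSF1B, the TNF receptor of leukocytes and endothelium, had 1584, 1545 and 1532 in boars and 1435, 1371 and 1477 in barrows. All barrow pools were below all boar pools, but by little, with means of 1554 ± 27.1 and 1428 ± 53.4 (SD, n = 3 each). The difference was -0.12 (95% CI -0.29 to 0.05, adjusted p = 0.59, and 0.46 with the block). In none of the 16 alternatives did TNFRSF1B pass.

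IL1R1, the signalling receptor of interleukin-1, had 828, 904 and 881 in boars and 877, 693 and 726 in barrows. Barrow replicate 1 lay among the boar pools and the others below them, for a difference of -0.19 (95% CI -0.43 to 0.05, limma adjusted p = 0.54). Its dim second probe set had -0.02. TNFRSF21, a death receptor, had a difference of -0.09 and IL11RA, the interleukin-11 receptor chain, of -0.07 (adjusted p = 0.81 and 0.85). Without barrow replicate 2 TNFRSF21 had 0.02.

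In the brightest probe set of TNFRSF12A (Fn14), the receptor of the ligand TWEAK, replicate 3 stood apart from the other pools of both groups. The signal was 416, 416 and 245 in boars and 461, 504 and 301 in barrows. The barrow pool was higher within each number, by 44.4, 87.7 and 56.2 signal units. The difference of 0.23 had an interval of -0.28 to 0.74 (limma adjusted p = 0.76, or 0.35 with number as a block). Without boar replicate 3 it was -0.01. The second tested probe set of TNFRSF12A did not share this pattern, with 143, 152 and 179 in boars and 206, 218 and 208 in barrows. Its difference was 0.39 without overlap between the groups (95% CI 0.06 to 0.72, limma adjusted p = 0.32, or 0.025 before adjustment).

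The receptor chains of interleukin-4, interleukin-13 and interleukin-10 had differences near 0. IL4R and IL13RA1, which together bind interleukin-4 and interleukin-13, had -0.03 and -0.01 (limma adjusted p = 0.96 and 0.99). IL10RB, shared by interleukin-10 and its relatives, had 0.06 (95% CI -0.20 to 0.33, adjusted p = 0.89). IL2RG, the chain common to the receptors of interleukins 2, 4, 7, 15 and 21, had 147, 179 and 171 in boars and 223, 128 and 160 in barrows. The lowest and the highest pool were both barrows, and the difference was 0.01 (95% CI -0.43 to 0.45). Over the 10 tested receptors 4 differences were above 0 and 6 below, with a median of -0.02. The interval lay between -0.5 and 0.5 in 9 of 10 receptors and in 3 of 12 ligands. The median spread between pools of a group was 0.15 (SD of log2) for receptors, 0.21 for ligands and 0.15 for all tested probe sets.

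The tested genes that are neither ligand nor receptor all had differences below 0. IL18BP, the soluble inhibitor of interleukin-18, had 348, 348 and 338 in boars and 333, 206 and 254 in barrows. The boar pools were nearly equal, and barrow replicate 1 missed their range narrowly. The means were 345 ± 5.58 and 264 ± 64.1 (SD, n = 3 each), and the difference was -0.39 (SE 0.16, 95% CI -0.75 to -0.03, limma adjusted p = 0.37 across all probe sets, 0.038 before adjustment). Without barrow replicate 2 it was -0.23, and without barrow replicate 1 it was -0.56 (adjusted p = 0.50 and 0.21). In the 16 alternatives the adjusted p of IL18BP ran from 0.21 to 0.70.

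TNFAIP1, an adaptor of a ubiquitin ligase, had 1390, 1494 and 1389 in boars and 1221, 1341 and 1253 in barrows. All barrow pools were lower, and the 3 differences within replicate numbers were close to each other, at -170, -153 and -136 signal units. The log2 difference was -0.16 (95% CI -0.35 to 0.02, limma adjusted p = 0.48, and 0.31 with the block). TNFAIP8L2, a brake on immune cell activation, and TNFAIP8, a regulator of cell death, had -0.11 and -0.02 (adjusted p = 0.88 and 0.98) with overlapping groups. With the mean of their probe sets both were above 0, at 0.03 and 0.18. TNFAIP6, a hyaluronan-binding protein of inflamed tissue, was under the filter, at 27.7 to 54.7 in boars and 27.2 to 46.4 in barrows.

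**Figure D3:**
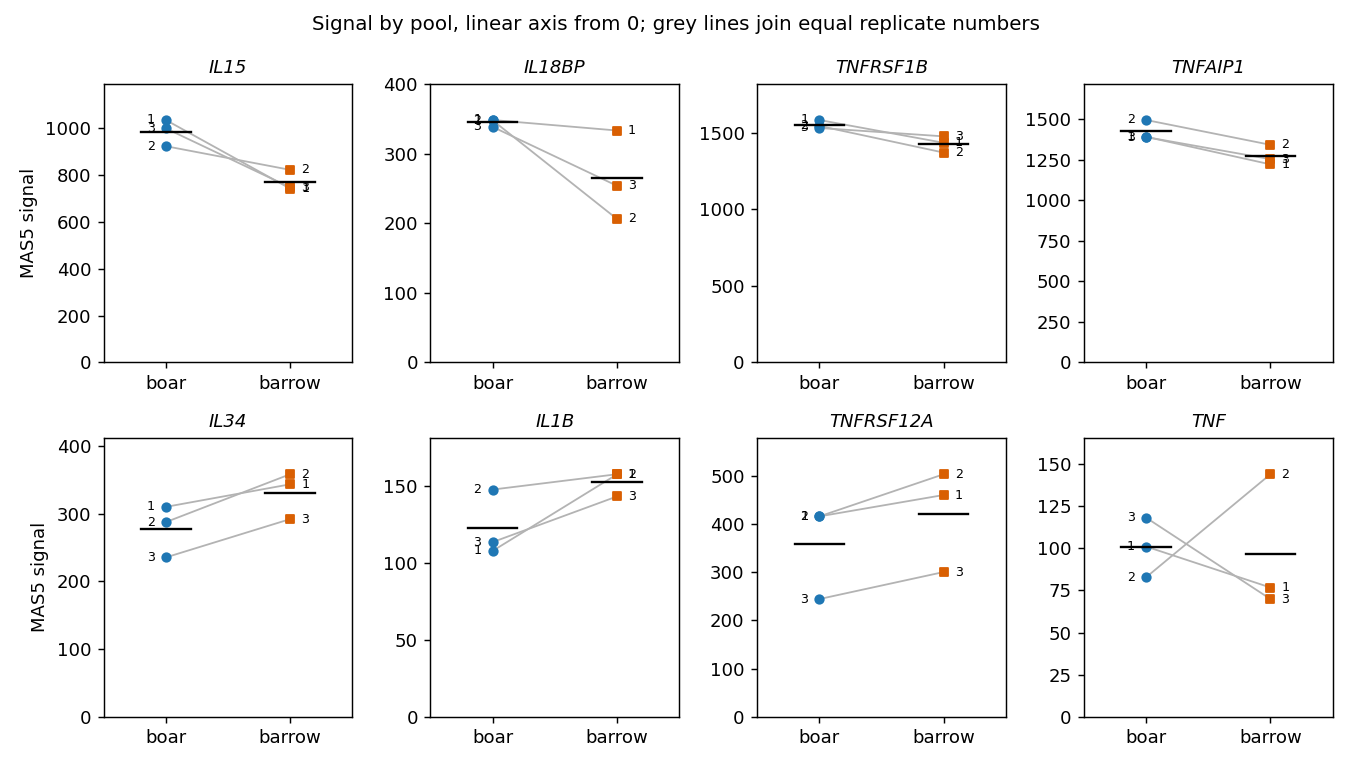
MAS5 signal in each pool, on a linear axis from 0, for 8 of the tested genes. Points carry their replicate number, grey lines join equal numbers and black bars are group means (n = 3). IL15, IL18BP, TNFRSF1B and TNFAIP1 (upper row) do not overlap between groups. TNFRSF12A follows the replicate number in the probe set shown, and TNF has its highest and lowest pools among barrows.

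Within equal replicate numbers, all 3 differences had 1 sign in 10 of the 26 tested members (38.5%), against 38.1% of all tested probe sets. The barrow pool was the higher in 4 of these (17.5% of all tested probe sets), IL34, IL1B, IL1A and TNFRSF12A. It was the lower in 6 (20.5% of all tested probe sets), which were IL15, TNFSF10, TNFRSF1B, IL11RA, IL18BP and TNFAIP1. In total 18 of 26 differences lay below 0 (69.2%), beside 53.4% of all probe sets.

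Ligands and receptors were also set side by side along 12 signalling axes with 20 ligand-receptor pairs among the members. Both sides were bright enough for the test in 5 pairs of 3 axes, interleukin-1, interleukin-15 and TNF. On the interleukin-1 axis the ligands IL1A and IL1B had 0.31 and 0.29 and the receptor IL1R1 -0.19. The interval of each included 0. The boar mean of IL1A was under the test threshold, and a dimmer probe set of this gene gave -0.22. The dimmer probe sets of IL1B and IL1R1 kept the sign of the brighter ones. On the interleukin-15 axis IL15 had -0.35 and IL2RG 0.01. The symbols IL15RA and IL2RB are not among the members, so the receptor side of this axis is only the shared chain IL2RG. On the TNF axis TNF had -0.09 and its receptors 0.00 and -0.12. In 8 pairs the receptor was tested but the ligand was too dim, as for interleukins 4, 13, 10, 2, 7 and 21. In 3 pairs this was the other way round: IL6, IL18 and TNFSF13 were tested, while IL6R, IL18R1 and TNFRSF17 were not.

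The 18 members under the filter had no test of their own. Mean signals of 16 of them lay below the brightest trp or tag control, and only IL10 and IL12RB2 lay above it. The anti-inflammatory IL10 had 106, 65.2 and 130 in boars and 79.3, 91.5 and 92.1 in barrows. As for IL18, the boar pools spanned the barrow range. IL2, IL7, IL12A, IL5, IL13, IL27RA, IL7R, IL18R1, IL2RA, IL6R and TNFRSF17 also overlapped, as did TNFAIP6. IL6R, the chain that binds interleukin-6, had signals of 1.95 to 16.6 in boars and 1.59 to 5.73 in barrows. IL7R, a lymphocyte receptor, had 38.2 to 88.9 and 49.1 to 67.6, and IL2RA, a marker of activated and regulatory T cells, 10.003 to 35.9 and 5.05 to 41.6.

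In 5 of these 18 dim members (27.8%) the groups did not overlap, against 10.5% of the 9600 probe sets under the filter. They were named after their values were seen. IL4, the type 2 cytokine, had 39.6, 35.3 and 37.1 in boars and 8.48, 4.09 and 7.72 in barrows. IL17A, made by a class of T cells, had 20.6, 23.8 and 25.8 in boars and 2.25, 3.32 and 3.96 in barrows. Both were lower in every barrow pool. IL21, a T cell cytokine, went the other way, with 28.0, 6.86 and 8.94 in boars and 78.7, 34.1 and 36.3 in barrows. IL12B, a subunit of interleukin-12, had 2.09 to 3.16 in boars and 3.70 to 7.13 in barrows. IL12RB2, a receptor chain of interleukin-12, had 54.3 to 74.9 in boars and 75.1 to 101 in barrows. Apart from IL12RB2, their signals in at least 1 group lay within the range of the trp and tag controls, and none of these signals is shown to exceed background.

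A fit without the filter, over all 23999 probe sets, called 96 of them (0.4%) and 0 of the 44 members. At an unadjusted p under 0.05, which 9.54% of these probe sets had, the members were IL15, IL18BP and the dim IL4, IL17A and IL21. IL4 had a difference of -1.23 (95% CI -1.76 to -0.71, limma adjusted p = 0.068), IL17A of -1.04 (95% CI -1.54 to -0.53, adjusted p = 0.11) and IL21 of 1.10 (95% CI 0.30 to 1.90, adjusted p = 0.32). At such signals the added 16 sets much of the log2 value and understates a difference in the signal itself.

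**Figure D4:**
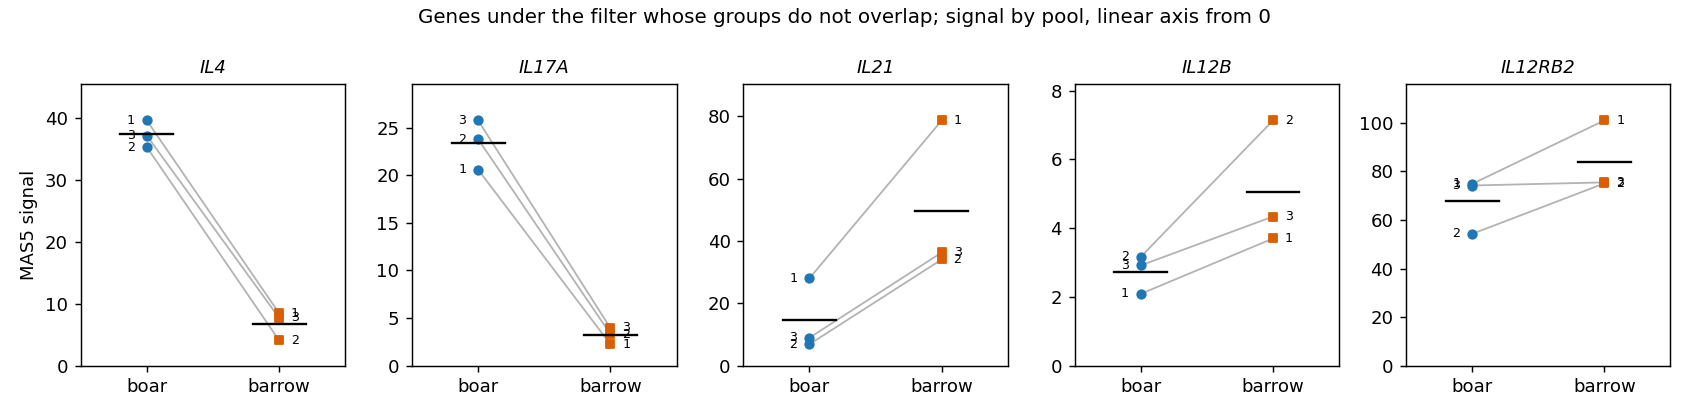
MAS5 signal in each pool, on linear axes from 0 that differ between genes, for the 5 genes under the filter whose groups do not overlap. IL4 and IL17A are lower and IL21, IL12B and IL12RB2 higher in all 3 barrow pools, at signals of at most 101, mostly within the range of control probe sets for sequences absent from pig RNA (mean up to 69.9).

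Genes that carry the signal inside the cell did not pass either. Of the TNF and interleukin-1 chain to NF-kB 11 of 13 genes on the array were tested, 0 passed, and 0 had an unadjusted p under 0.05 (limma), with a median difference of -0.11. TOLLIP, a restraint on interleukin-1 receptor signalling, had -0.27 (95% CI -0.54 to 0.01, adjusted p = 0.42). Without barrow replicate 2 TOLLIP passed, at -0.43 (limma adjusted p = 0.029, over the alternatives 0.029 to 0.72). CFLAR, an inhibitor of death receptor signals, had -0.15 and the kinase IRAK1 0.14 (adjusted p = 0.60 each). With the mean of its probe sets IRAK1 had -0.09.

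Of the JAK-STAT chain 9 of 11 genes were tested and 0 passed, with 0 at an unadjusted p under 0.05 and a median of -0.04. STAT6, the factor of interleukin-4, had -0.29, TYK2 -0.11 and STAT3, the factor of interleukin-6, -0.10 (limma adjusted p = 0.57, 0.69 and 0.70). Of feedback inhibitors and genes induced by these pathways 12 of 19 were tested and 0 passed (median -0.05). At an unadjusted p under 0.05 there was 1, CEBPD, a transcription factor of the acute phase, with 0.17 (adjusted p = 0.31). The chemokine CCL2 and the adhesion molecule ICAM1, targets of NF-kB, had -0.16 each (adjusted p = 0.53 and 0.57). The 3 proteases that release or activate the ligands did not pass: ADAM17 for TNF and CASP1 for IL1B and IL18 had -0.12 and -0.10, and ADAM10 had -0.09 (adjusted p = 0.76, 0.90 and 0.87). Of family members under other names 2 of 11 were tested, CD40 at 0.18 and SIGIRR at -0.08 (adjusted p = 0.77 and 0.92).

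Markers of macrophages, endothelium and T and NK cells had differences mostly below 0, and those of fat cells and fibroblasts did not. Of 11 macrophage markers on the array 10 were tested, 9 lay below 0, 0 passed and 5 had an unadjusted p under 0.05 (limma). Over all tested probe sets 53.4% lay below 0 and 12.2% had such a p, 6.22% with barrows lower. The macrophage markers CD163 and MRC1 had 0.15 and -0.02. The median difference of the list was -0.23, and its summed signal was 10830 to 12875 in boars and 10012 to 11154 in barrows. Under the replicate block C1QA, a complement subunit made by macrophages, passed at -0.44 (limma adjusted p = 0.035, 0.13 without the block). All 10 endothelial markers on the array were tested, with a median of -0.23. TEK passed among them (limma adjusted p = 0.047), whereas EGFL7 had 0.12, CDH5 -0.00 and VWF -0.05. The groups did not overlap in 5 of the 10, all lower in barrows, against 18.1% of all tested probe sets (9.76% with barrows lower). The endothelial sum was 17044 to 17738 in boars and 15032 to 15872 in barrows, without overlap. Its brightest part was PECAM1, at a mean signal of 7254. Of 10 T and NK cell markers 4 were tested and 0 passed, with differences of -0.30 to -0.13 and sums of 1655 to 1926 and 1390.5 to 2019. Of 10 fat cell markers 6 lay above 0, and LEP, the leptin gene, passed at 0.58 (limma adjusted p = 0.021). Of 7 tested fibroblast and progenitor markers 4 lay above 0 and 0 passed. Under the replicate block FBLN1 passed at 0.50 and DPT at -0.32 (limma adjusted p = 0.047 and 0.041). The 1 tested neutrophil marker, S100A9, had 0.22 (adjusted p = 0.64). The 1 tested B cell marker, JCHAIN, had -0.48 (adjusted p = 0.55). No marker of these lists was at 0 in any pool. IL15, IL18BP and TNFRSF1B had lower barrow signals alongside these macrophage and endothelial values, and the part of these cells in their values was not tested.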

How the data were processed

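Each of the 6 arrays measured 1 pool of backfat RNA, and both groups had 3 pools. The deposited table holds the authors' signal intensity per probe set on a linear scale, made with MAS5, per the submitters' processing notes. MAS5 summarises matched and mismatched probes. For its version and settings, nothing is given in the sources used here. On every array the 2% trimmed mean rounded to 500.1, as a global scaling by the authors would give. Detection calls were not used here.

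Of 24123 probe sets, 124 controls were left out. Signals were transformed to log2(signal + 16), and the brightest 60% by mean, 14399 probe sets, were tested 2-sided in R 4.3.3 with limma 3.58.1 (lmFit, then eBayes allowing a trend with intensity; Benjamini-Hochberg adjustment over all of them, threshold 0.05). The fit has no block. The number of arrays limits the precision. A gene is represented by its brightest probe set. The symbols of the 44 genes were found again through their gene identifiers in RefSeq (assembly Sscrofa11.1), where 0 had changed. Probe sets with several symbols were not used.

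The correlation of residuals between same-numbered pools of the groups was 0.12, 0.17 and 0.26, all above 0.1, which meets the rule for pairing. The values reported are from the fit without a block unless the block is named. Blocked values are given where a call differs and for some other genes. What the numbers share is not stated.

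A rule chose most named genes. It took tested members with an unadjusted p under 0.05, members next to the filter threshold and a list of well-known members. It also took the smallest p in each role (6 ligands, 8 receptors, 4 others) and in each pathway list (3 each). Outside this rule, the remaining tested ligands, other members under the filter and cell type markers were named too. Dim members whose groups did not overlap were picked out after their values were seen. The members, roles and gene lists were chosen with earlier results of these data known. Alternatives were the pseudocount, filter, normalization, block, trend, array weights, probe set averaging and leaving out each pool. On simulated arrays of this comparison (14399 probe sets, 200 changed), limma called 13 of 67 with a log2 change of 0.5, 44 of 67 with a change of 1, 63 of 66 with a change of 2, and 4 unchanged ones.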

Additional observations from a re-analysis of the deposited data

How the results depend on the processing

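No interleukin or TNF family member passed in any of the 16 alternatives except IL15, which passed with array weights, where 1 tested ligand was called. The number of probe sets called over the whole array moved more: 338 with the replicate block (215 higher in barrows, 123 lower), 96 without the filter (61 and 35), 32 without the intensity trend (20 and 12) and 425 with array weights (233 and 192), beside 167. Leaving out 1 pool gave 24 to 291 (16 to 160 higher, 8 to 131 lower), and medians of -0.10 to 0.048 for tested ligands, -0.087 to 0.026 for receptors and -0.20 to -0.05 for other members. The cause of these shifts was not tested. The block changed no call of a member.

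Differences of several named genes turned sign without a call on either side, most of them small in the main fit. The largest in the main fit were 0.23 for TNFRSF12A and 0.14 for IRAK1. IL13RA1 had 0.016 under quantile normalization, 0.015 under median centring and 0.095 with array weights. Median centring gave 0.0056 for TNFAIP8 and 0.0022 for IL6, and array weights gave 0.017 for IL6. The mean of probe sets gave 0.19 for IL4R, 0.027 for TNFAIP8L2, 0.18 for TNFAIP8 and -0.091 for IRAK1. Leaving out 1 pool gave -0.20 to 0.041 for ADAM10, -0.27 to 0.021 for CASP1, -0.10 to 0.13 for IL13RA1, -0.19 to 0.18 for IL2RG and -0.15 to 0.059 for IL4R. It gave -0.12 to 0.11 for IL6, -0.24 to 0.056 for SIGIRR, -0.38 to 0.073 for TNF, -0.13 to 0.062 for TNFAIP8 and -0.24 to 0.12 for TNFAIP8L2. For TNFRSF12A, TNFRSF1A and TNFRSF21 the ranges were -0.014 to 0.45, -0.033 to 0.033 and -0.18 to 0.018.

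Without detection calls it is unknown which dim members stood above background. In simulated arrays of this design 13 of 67 differences of 0.5 on the log2 scale were called, so that a missed call says little about differences of that size.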
